A study of Mus musculus with 6 samples.

Results

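Esr1, Pgr, Nr3c1, Nr3c2, Thra, Thrb, Rxra and Vdr encode 8 nuclear receptors for steroid hormones, thyroid hormone, retinoids and vitamin D, and their counts were examined in female mouse submandibular glands (SMG). The genes were taken from a named list of receptors connected with the granular duct of this gland. Their values were not part of the rule, but earlier results of these data were known. The genes make up 8 of the 43280 rows of the count table. RNA sequencing covered 6 female SMG libraries, 3 labelled WT and 3 labelled double knockout (DKO), each numbered 1, 4 and 5, and the comparison asks which transcripts differ when the gland lacks both Hs3st3a1 and Hs3st3b1. The enzymes made by the targeted genes place 3-O-sulfate on heparan sulfate, a sugar chain of cell surfaces and basement membranes.

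The WT libraries came from C57BL/6 mice with neither allele altered. In the DKO animals, per the study's methods, Hs3st3b1 was disrupted by a LacZ cassette and Hs3st3a1 by a frameshift deletion made in exon 1 with a zinc finger nuclease, both on the same chromosome copy. These alleles act in the whole body, so the hormone-producing glands lacked the enzymes as well as the SMG. The study describes the sequenced glands as adult and the WT animals as littermates. More than 1 founder line was kept, and the labels do not say which founder, age or estrous cycle stage each library stands for. The targeted genes did not separate the groups. Hs3st3a1 was counted 15, 11 and 15 times in WT and 11, 8 and 13 times in DKO, and Hs3st3b1 173, 203 and 261 times in WT and 255, 120 and 189 times in DKO. Counts per gene do not show a frameshift or say which exons were read, so the groups are named throughout by their labels.

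Nuclear receptors are transcription factors that are switched by a small lipid-soluble hormone. The glucocorticoid (Nr3c1), mineralocorticoid (Nr3c2), progesterone (Pgr) and estrogen (Esr1) receptors mostly bind DNA as pairs of the same protein after hormone has released them from chaperones. The thyroid hormone receptors (Thra and Thrb) and the vitamin D receptor (Vdr) sit on DNA as partners of a retinoid X receptor such as Rxra, and without hormone they recruit corepressors. In the rodent SMG, steroid and thyroid hormones drive the granular convoluted tubule, the duct segment that stores kallikreins, epidermal growth factor, nerve growth factor and renin, and it is larger in males than in females.

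The receptors are sorted into classes by the DNA they read, and a stretch that takes part in the reading is shown. For 6 of them, each line gives the coding bases of the first zinc finger, 75 bases for 25 codons, from the GRCm38 genome with the GENCODE M21 annotation, 5′ to 3′ on the coding strand. The capitals mark the codons of the P box, the residues that touch the hormone response element. Those of Thra, Thrb, Rxra and Vdr differ only in bases that leave the encoded residues the same. Those of Esr1 and Pgr encode other residues.
Esr1: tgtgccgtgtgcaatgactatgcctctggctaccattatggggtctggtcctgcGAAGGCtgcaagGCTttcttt
Pgr: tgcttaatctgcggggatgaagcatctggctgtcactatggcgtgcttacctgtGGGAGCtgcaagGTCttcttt
Thra: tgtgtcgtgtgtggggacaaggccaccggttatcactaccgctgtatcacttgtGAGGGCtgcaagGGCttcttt
Thrb: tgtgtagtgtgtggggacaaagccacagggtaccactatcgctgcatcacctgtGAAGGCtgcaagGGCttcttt
Rxra: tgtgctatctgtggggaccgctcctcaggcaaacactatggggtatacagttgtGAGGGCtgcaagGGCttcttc
Vdr: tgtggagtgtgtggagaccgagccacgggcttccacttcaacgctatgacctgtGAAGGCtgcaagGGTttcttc

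The Esr1 stretch lay at chr10:4746717-4746791 in exon 4 and Pgr at chr9:8903657-8903731 in exon 2, both on the plus strand. The others were split by an intron in 3 of 4 cases, with Thra at chr11:98756958-98760884 (exons 4 and 5), Thrb at chr14:18002563-18008577 (exons 2 and 3) and Rxra at chr2:27741176-27741810 (exons 4 and 5), also on the plus strand. Vdr lay at chr15:97884796-97884870 on the minus strand in exon 3. Thra and Thrb shared 88.0% of the 75 bases. Pgr shared 76.0% with Nr3c1. Esr1 shared 69.3% with Thrb and 62.7% with Pgr.

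All 8 receptors were counted in every library and all passed the count minimum of 10 summed over the 6 libraries. Levels were compared between genes only as normalized counts per kb of merged exons, a level that corrects for library size and gene length. In WT, the glucocorticoid receptor Nr3c1 stood highest at 177 ± 7.43 (SD, n = 3), above the mineralocorticoid receptor Nr3c2 at 144 ± 13.3 and Thrb at 143 ± 8.31. Rxra followed at 112 ± 4.32 and Thra at 110 ± 14.3. The vitamin D receptor was lower, at 30.1 ± 5.86 for Vdr, and the sex steroid receptors were lowest, at 13.7 ± 2.27 for Pgr and 4.78 ± 1.69 for Esr1. Among 17301 rows with an annotated length, Nr3c1 stood at percentile 83.7, Vdr at 44.6, Pgr at 27.6 and Esr1 at 14.6. Neighbours in this order separated in every WT library except for 2 pairs, Nr3c2 with Thrb and Rxra with Thra, whose libraries overlapped.

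The order in DKO ran Nr3c1 at 164 ± 7.76, Thrb at 128 ± 8.25, Thra at 116 ± 13.8, Nr3c2 at 114 ± 6.86, Rxra at 112 ± 4.62, Vdr at 32.8 ± 5.17, Pgr at 7.66 ± 1.44 and Esr1 at 2.11 ± 1.31 (SD, n = 3). Thrb, Thra, Nr3c2 and Rxra overlapped from neighbour to neighbour. In WT, Nr3c2 stood second by its mean only, above Thrb in 1 of 3 libraries, so its place in DKO is not read as a change of rank. The 3 lowest receptors kept their ranks. Dividing by the longest transcript in place of merged exons lifted Thra from rank 5 to rank 2 in WT, because its merged exons cover 4614 bases and its longest transcript 2452. Thra makes both a hormone-binding receptor and products that bind no hormone, and the counts per gene do not separate them.

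**Figure D1:**
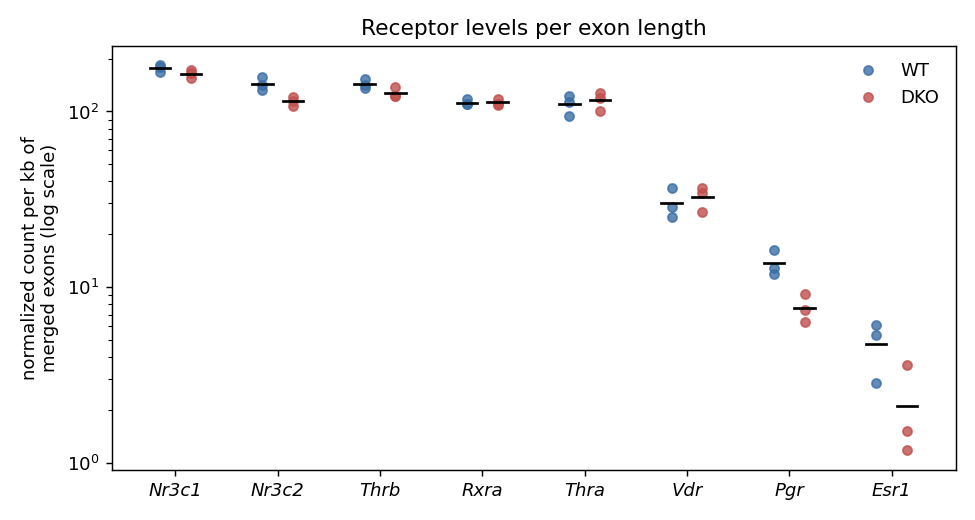
Level of each receptor in normalized counts per kb of merged exons (log scale), 3 libraries labelled WT (blue) and 3 labelled DKO (red), with a bar at each group mean. Nr3c1 was highest in both groups, 5 receptors lay above 90 in every library, and Pgr and Esr1 lay lowest.

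The sex steroid and mineralocorticoid receptors had the largest negative differences between DKO and WT, and the thyroid hormone, retinoid X and vitamin D receptors had small ones. Of 8 receptors, 1 fell (Pgr), 0 rose and 7 did not pass an adjusted p of 0.05 in the DESeq2 Wald test, where 2.9% of the 18606 rows tested passed in either direction, 1.88% as lower and 1.02% as higher. The groups did not overlap for 2 receptors, Pgr and Nr3c2, both lower in DKO, against a background of 20.3% of rows without overlap in either direction, 10.5% as lower and 9.85% as higher. At an unadjusted p under 0.05, DESeq2 took 3 receptors (Pgr, Esr1 and Nr3c2) where it took 12.2% of all rows. edgeR and limma-voom called 0 receptors after adjustment, where they called 0.0537% and 0.0376% of all rows, and each had 3 receptors at an unadjusted p under 0.05, where they took 15% and 14% of all rows. The median log2 fold change of the 8 receptors was -0.14, ranging from -1.17 to 0.12, beside 0.00 over all rows tested. Scaling by total counts moved the median of all rows to -0.23 and called 4 receptors lower (Pgr, Nr3c2, Thrb and Esr1), and on that scale the signs of Thra, Rxra and Vdr turned negative.

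**Figure D2:**
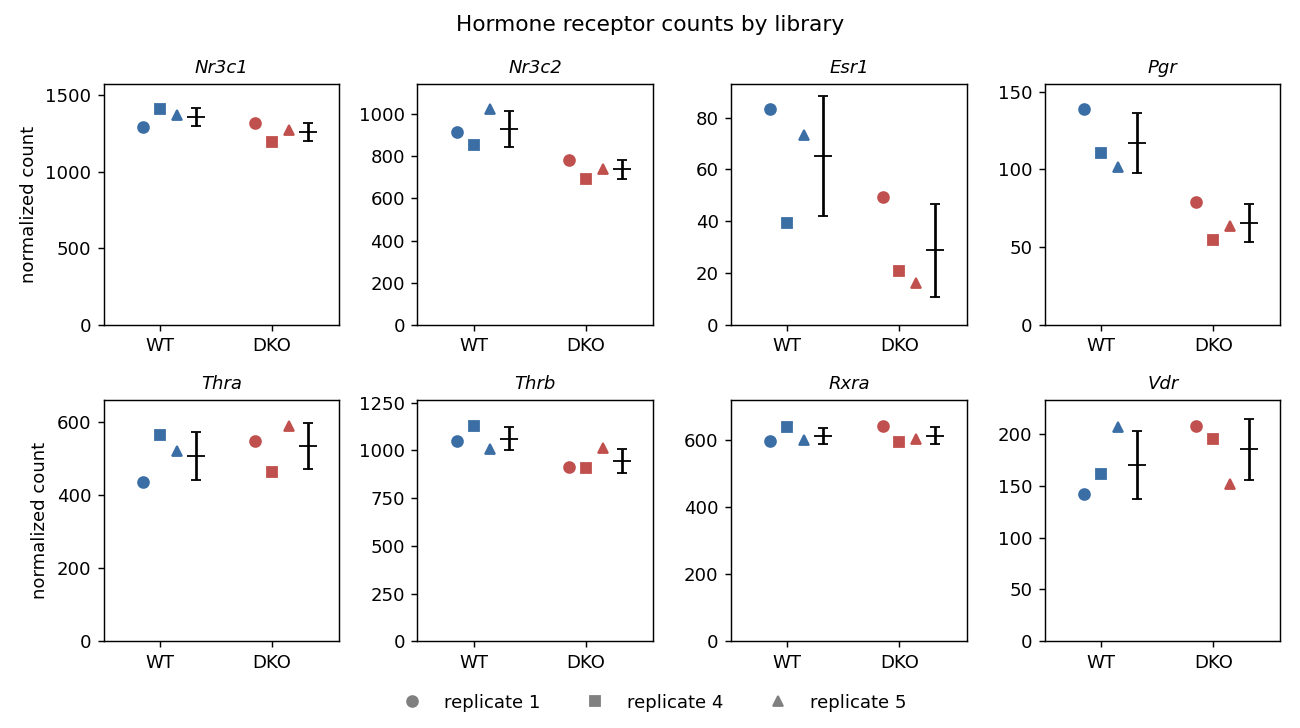
Normalized counts of each receptor in the 6 libraries, by group and replicate number, with the group mean and SD (n = 3) to the right of the points and each axis starting at 0. Pgr and Nr3c2 were lower in all 3 DKO libraries than in any WT library, whereas the groups overlapped for the other 6 receptors.

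Pgr encodes the progesterone receptor, which in many tissues is itself induced by estrogen through Esr1. Pgr (chr9:8899833-8968611) was counted 140, 113 and 113 times in WT 1, 4 and 5 and 83, 52 and 55 times in DKO 1, 4 and 5. After scaling for library size these were 139, 111 and 101 normalized counts in WT against 78.7, 54.4 and 63.4 in DKO, so that every DKO library lay below every WT library. The mean fell from 117 ± 19.4 to 65.5 ± 12.3 normalized counts (SD, n = 3), which is 0.563 times the WT level. The log2 fold change was -0.83 (SE 0.26, 95% interval -1.34 to -0.32, adjusted p = 0.0448, DESeq2). This call lay close to the threshold. The adjusted p for Pgr was 0.154 with edgeR, 0.201 with limma-voom and 0.0518 in DESeq2 without independent filtering.

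Leaving out single libraries ended the Pgr call in 5 of 6 cases, although the log2 fold change stayed between -0.99 and -0.69. The adjusted p in DESeq2 became 0.410 without WT 1, 0.0815 without WT 4, 0.129 without WT 5, 0.238 without DKO 4 and 0.227 without DKO 5, and it was 0.0252 without DKO 1. WT 5 and DKO 1 stood apart from the other libraries in duct and mucous products. Renin (Ren1) had 83.3 normalized counts in WT 5 and 113 in DKO 1 against 12505 or more in the others, and Muc19, a mucin of sublingual glands, had 55665 and 3706 against 119 or fewer. Without both libraries, a choice made after seeing these values, the log2 fold change of Pgr was -1.08 (adjusted p = 0.165, DESeq2).

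Esr1 encodes estrogen receptor alpha. Esr1 (chr10:4611593-5005614) was the least counted receptor, with 84, 40 and 82 counts in WT and 52, 20 and 14 in DKO. In normalized counts WT 1 and WT 5 were high at 83.1 and 73.4, WT 4 was lower at 39.1, and DKO 1 at 49.3 lay above WT 4, so the groups overlapped. DKO 4 and DKO 5 were lowest at 20.9 and 16.1. The log2 fold change of Esr1 was -1.17 (SE 0.45, 95% interval -2.06 to -0.28, adjusted p = 0.147, DESeq2), the widest interval of the 8 receptors. Without DKO 1, Esr1 had a log2 fold change of -1.81 (adjusted p = 0.00971, DESeq2), and leaving out any other single library gave an adjusted p of at least 0.0698.

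Fibroblast, leukocyte and myoepithelial cell (MEC) markers had lower mean counts in DKO, as did Pgr, Esr1 and Nr3c2. The fibroblast sums overlapped between groups, with DKO 1 (9993) above WT 4 (9386), and Esr1 overlapped as well. The MEC and leukocyte sums were lower in every DKO library than in any WT library, as were Pgr and Nr3c2. All 6 fibroblast markers had a negative log2 fold change and 2 were called lower (Pdgfra at -0.59 and Dcn at -0.47), with summed normalized counts of 9386 to 13009 in WT and 7096 to 9993 in DKO. Leukocyte markers summed to 685 to 1663 in WT and 349 to 605 in DKO, with 5 of 5 counted markers negative and 0 called (DESeq2, 3 at an unadjusted p under 0.05, and 0 called by edgeR or limma-voom). MEC markers summed to 9924 to 10788 in WT and 5370 to 7083 in DKO, with 6 of 6 called lower. Over all rows tested, DESeq2 called 1.88% lower and had 12.2% at an unadjusted p under 0.05 in either direction. In a whole gland, fewer cells of a type and less RNA per cell cannot be told apart.

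Pgr per 1000 fibroblast marker counts was 13.1, 11.8 and 7.78 in WT and 7.88, 7.66 and 8.14 in DKO, so on this scale the groups overlapped. They overlapped as well per 1000 MEC marker counts (9.90 to 12.8 in WT and 9.34 to 11.8 in DKO) and per 1000 leukocyte marker counts (83.3 to 161 in WT and 126 to 182 in DKO). Esr1 also overlapped on all 3 scales. All 3 marker sums were lower in DKO on average, so dividing by them raises DKO against WT whatever the source of the counts. No marker sum that was not lower in DKO was used as a divisor. The part of these cells in the lower Pgr counts was not tested. Mammary tissue, which lies near the gland and is rich in both receptors, was checked by its milk genes, and Csn2, Csn1s1, Wap and Lalba had 0 counts in all 6 libraries. The fifth, Csn3, was counted 3, 2 and 11 times in WT and 1, 0 and 2 times in DKO. The labels do not say whether any animal was pregnant or lactating, so milk genes cannot show whether mammary tissue was present. The part of mammary tissue in the Pgr and Esr1 counts was not tested.

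Nr3c2 encodes the mineralocorticoid receptor, through which aldosterone raises sodium uptake in ducts. Nr3c2 (chr8:76899442-77245012) stood at 916, 853 and 1023 normalized counts in WT against 782, 693 and 739 in DKO, and every DKO library was below every WT library. The log2 fold change of Nr3c2 was -0.33 (SE 0.12, 95% interval -0.57 to -0.10), with an unadjusted p of 0.00476 and an adjusted p of 0.0929 in DESeq2, so the difference did not pass. Its adjusted p was between 0.0536 and 0.556 when single libraries were left out in DESeq2. Per 1000 MEC marker counts the order turned, with 84.9 to 100.1 for Nr3c2 in WT and 110 to 138 in DKO, and it turned as well per 1000 leukocyte marker counts (551 to 1246 in WT and 1292 to 2116 in DKO). Both marker sums were lower in DKO by a larger factor than Nr3c2 was, so the turn follows from the divisor. Per 1000 fibroblast marker counts the groups overlapped for Nr3c2. Over 247 bases, 3.82% of its merged exons, Nr3c2 shares sequence with Gm10649 on the other strand, and the unstranded reads of the 2 genes cannot be told apart there.

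Nr3c1 encodes the glucocorticoid receptor, which mediates the action of corticosterone in most cells. Nr3c1 (chr18:39410545-39519421, minus strand) stood at 1296, 1409 and 1370 normalized counts in WT against 1317, 1199 and 1273 in DKO. DKO 1 lay above WT 1, so the groups overlapped. Its log2 fold change was -0.11 (SE 0.098, 95% interval -0.30 to 0.09, adjusted p = 0.752, DESeq2), an interval that leaves room for a small decrease or a smaller increase. The ratio of Nr3c1 to Nr3c2 per kb was 1.19, 1.39 and 1.13 in WT and 1.42, 1.46 and 1.45 in DKO. The ratio was above the WT range in all 3 DKO libraries, although Nr3c1 alone did not separate the groups. For a single ratio of 3 libraries against 3, a two-sided permutation test cannot give a p below 0.1.

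Thra and Thrb encode the thyroid hormone receptors. Thra (chr11:98740638-98769006) stood at 436, 566 and 522 normalized counts in WT against 549, 465 and 590.3 in DKO, with libraries of both groups interleaved. Its log2 fold change was 0.07 (SE 0.15, 95% interval -0.22 to 0.37, adjusted p = 0.922, DESeq2), and the sign turned without WT 1 (-0.03). Thra shares 263 bases, 5.70% of its merged exons, with the clock gene Nr1d1 on the other strand, whose reads cannot be told apart from its own in these unstranded libraries. Nr1d1 had its lowest value in WT 1 (882 normalized counts) and its highest in DKO 5 (2354), the libraries in which Thra was also lowest and highest, and the part of the overlap in the Thra values was not tested.

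Thrb (chr14:17660261-18038090) stood at 1049, 1128 and 1007 normalized counts in WT against 912, 906 and 1015 in DKO. DKO 5 reached just above WT 5, and the other 2 DKO libraries lay below all WT libraries. The log2 fold change of Thrb was -0.17 (SE 0.11, 95% interval -0.38 to 0.04, adjusted p = 0.550, DESeq2). Per kb, Thrb exceeded Thra in all 6 libraries, by a ratio of 1.31 ± 0.161 in WT and 1.11 ± 0.0950 in DKO (SD, n = 3). Per kb of the longest transcript the order turned, with Thra at 207 and Thrb at 171 in WT and 218 and 152 in DKO, so which of them is higher depends on the length used. With merged exons, the ratios of DKO 1 and DKO 5, at 1.03 and 1.07, were below all WT ratios, and DKO 4 at 1.21 lay between WT 5 (1.20) and WT 4 (1.24).

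Rxra, the shared partner of Thra, Thrb and Vdr, differed least of the 8. Rxra (chr2:27676440-27762957) stood at 599.7, 641 and 600.1 normalized counts in WT against 643, 597 and 603 in DKO. The groups overlapped almost fully, with a log2 fold change of 0.00 (SE 0.11, 95% interval -0.22 to 0.23, adjusted p = 0.998, DESeq2). Vdr encodes the vitamin D receptor, and Vdr (chr15:97854425-97910630, minus strand) stood at 142, 161 and 207 normalized counts in WT against 208, 195 and 152 in DKO. Its libraries interleaved as well, at a log2 fold change of 0.12 (SE 0.21, 95% interval -0.29 to 0.54, adjusted p = 0.906, DESeq2).

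**Figure D3:**
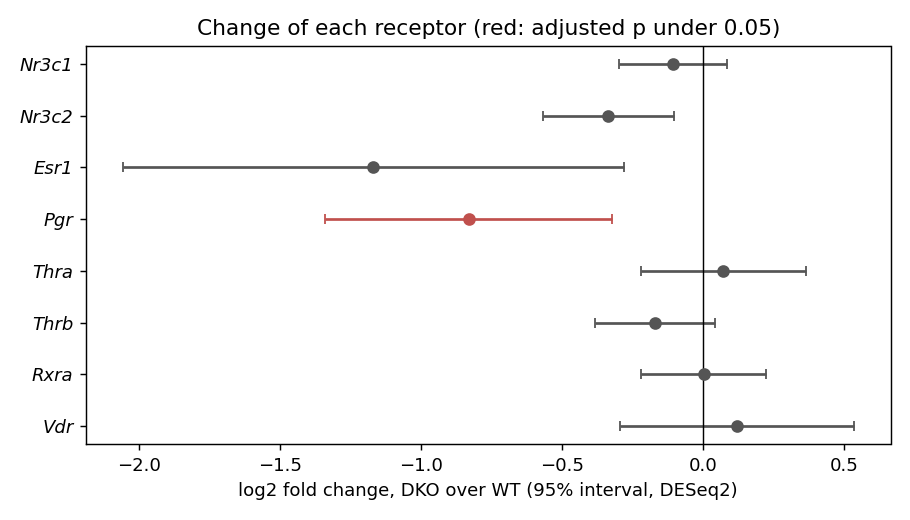
Log2 fold change of each receptor, DKO over WT, with its 95% interval from DESeq2 (n = 3 per group), and the receptor with an adjusted p under 0.05 in red. The intervals of Pgr, Esr1 and Nr3c2 lay below 0, that of Rxra was centred on 0.00, and that of Esr1 was the widest, from -2.06 to -0.28.

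Within the receptor set, log2 normalized counts of Esr1, Pgr and Nr3c2 moved together over the 6 libraries, at a Pearson r of 0.86 for Esr1 with Nr3c2, 0.85 for Esr1 with Pgr and 0.83 for Pgr with Nr3c2. These points share libraries and contain the group difference, and the values are a description. Outside the set, genes with a mean of at least 50 normalized counts were searched. A search of many rows over 6 libraries can give a high r by chance, so the genes named are a description as well. The genes closest to Pgr were Pdgfd (r = 0.998), St6gal1 (0.997) and Evc (0.993), among 11488 rows searched. The closest to Esr1 were Clock (0.992), Tmem106a (0.991) and Dapp1 (0.989), and those to Nr3c2 included Cnot6 (0.995) and Epha3 (0.991). Nr3c1 was closest to Pappa (0.998), Vps13c (0.995) and 9530026P05Rik (0.995). For Thra these were Slc16a7 (0.989), Zfp219 (0.988) and Ccdc149 (0.988), and for Thrb Acrbp (0.992), Atp11a (0.986) and Camk2n1 (0.981). Rxra was closest to Jup (0.985), 3300002I08Rik (0.977) and Trp53bp2 (0.966), and the genes close to Vdr included Mmp15 (0.969) and Klhdc8b (0.967).

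Genes that act around the receptors were read from the same fit in 10 lists with 136 distinct genes, of which 116 were tested, 1 was not matched to a row and 19 were under the count minimum. Of these, 19 fell, 0 rose and 97 did not pass the DESeq2 threshold, and 15 of the 19 were granular duct products. The 99 tested genes outside the granular duct list gave 4 that fell, Fkbp5, Zbtb16, Dusp1 and Scnn1g, which stand in the lists of glucocorticoid or mineralocorticoid receptor targets. Over all rows tested, 2.9% were called and 1.88% were called lower, so a count of 4 among 99 is not far from the background. edgeR and limma-voom called 2 and 3 of the 116, all among the granular duct products.

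Glucocorticoid targets, a list chosen with earlier results of these data known, held 3 of these 4 calls. Of 13 tested, 3 fell, 0 rose and 10 did not pass, beside 1.88% of all rows called lower, at a median log2 fold change of -0.25. Zbtb16, a transcription factor strongly induced by glucocorticoids, stood at 389, 287 and 381 normalized counts in WT against 198, 180 and 135 in DKO. All 3 DKO libraries were lower than all WT libraries, and the log2 fold change of Zbtb16 was -1.04 (SE 0.20, adjusted p = 4.09e-05, DESeq2). The call held in DESeq2 whichever library was left out, at an adjusted p of at most 0.0120, and without both WT 5 and DKO 1 (0.0151). It did not hold in edgeR (adjusted p = 0.0890) or limma-voom (0.103). Per 1000 fibroblast marker counts, Zbtb16 was 29.3 to 36.7 in WT and 17.3 to 25.3 in DKO, still without overlap. Per 1000 MEC marker counts (28.9 to 37.2 and 25.1 to 30.9) and per 1000 leukocyte marker counts (234 to 419 and 328 to 415) the groups overlapped. Each of these sums was lower in DKO on average, so the division raises DKO against WT whatever the source of the counts.

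Fkbp5 encodes a co-chaperone that holds the glucocorticoid receptor in a state of low hormone affinity, and its gene is induced by the same receptor. Fkbp5 stood at 968, 731 and 941 normalized counts in WT against 393, 639.7 and 394 in DKO, all DKO libraries lower. The log2 fold change of Fkbp5 was -0.89 (SE 0.19, adjusted p = 7.89e-04, DESeq2), with an adjusted p of 0.147 in edgeR and 0.167 in limma-voom. It missed the threshold narrowly without WT 1 (0.0584), WT 5 (0.0626) or DKO 5 (0.0571), and was 0.179 without WT 5 and DKO 1 together. Per 1000 fibroblast, MEC or leukocyte marker counts, the groups overlapped for Fkbp5. These sums were lower in DKO on average, so the division itself raises DKO against WT.

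Dusp1, a phosphatase that restrains MAP kinases, stood at 129, 143 and 108 normalized counts in WT against 57.9, 84.7 and 63.4 in DKO. Its log2 fold change was -0.88 (SE 0.25, adjusted p = 0.0219, DESeq2). Dividing by marker sums that were lower in DKO on average raises DKO against WT for Dusp1 too. Per 1000 fibroblast marker counts Dusp1 was 8.33 to 15.2 in WT and 5.79 to 11.9 in DKO, with overlap. Dusp1 overlapped between groups per 1000 MEC or leukocyte marker counts as well. It was not called in edgeR (0.147) or limma-voom (0.181), and the DESeq2 call held only without DKO 4 (0.0152) among the libraries left out in turn, the others giving 0.177 without WT 1, 0.113 without WT 4, 0.0700 without WT 5, 0.0954 without DKO 1 and 0.169 without DKO 5. Other well known targets did not pass, and they lay on both sides of 0. At an unadjusted p under 0.05, DESeq2 took 5 members as lower and 2 as higher, where it took 12.2% of all rows either way. The higher ones, named after their values were seen, were Ddit4, an inhibitor of mTOR signalling, at a log2 fold change of 0.76 (adjusted p = 0.157, DESeq2) and the metallothionein Mt1 at 0.32 (adjusted p = 0.357, DESeq2). Sgk1, the serum and glucocorticoid regulated kinase, had a log2 fold change of -0.33 (adjusted p = 0.267, DESeq2). Tsc22d3 and Per1, named after their values were seen, overlapped between groups, and Per1, also a clock gene, ranged from 210 to 1258 normalized counts within DKO alone.

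Mineralocorticoid targets included the 3 subunits of the epithelial sodium channel. Of 8 tested, 1 fell, 0 rose and 7 did not pass, beside the same 1.88% of all rows, at a median log2 fold change of -0.14. Scnn1g, the gamma subunit, stood at 542, 508 and 605 normalized counts in WT against 383, 366 and 382 in DKO. The log2 fold change of Scnn1g was -0.55 (SE 0.13, adjusted p = 0.00290, DESeq2), with all DKO libraries lower, and the call ended without WT 5 (adjusted p = 0.0810), without WT 5 and DKO 1 (0.282), in edgeR (0.0986) and in limma-voom (0.118). The alpha and beta subunits, Scnn1a and Scnn1b, had log2 fold changes of -0.15 and -0.27 (adjusted p = 0.729 and 0.129, DESeq2). Per 1000 MEC or fibroblast marker counts, the groups overlapped for Scnn1g. Both sums were lower in DKO on average, so the division raises DKO against WT whatever the source of the counts. Hsd11b2, the enzyme that shields the mineralocorticoid receptor from corticosterone in kidney and colon, was counted once in WT 1 and once in WT 4 and not in the other 4 libraries.

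Targets of the other receptors gave no call. Of 6 thyroid hormone targets tested, 0 rose and 0 fell in DESeq2, at a median log2 fold change of -0.19, with Me1 (malic enzyme) at -0.29 and Hr (a corepressor) at 0.15. Dio1, which activates thyroid hormone and was named after its values were seen, stood at 54.4, 2.93 and 45.7 normalized counts in WT against 8.54, 6.27 and 11.5 in DKO, so WT 4 was lowest of all. It was the 1 gene of this list at an unadjusted p under 0.05, and edgeR and limma-voom called 0. Vitamin D targets had 3 of 7 genes above the count minimum, with 0 called and 0 at an unadjusted p under 0.05 in DESeq2, edgeR or limma-voom. Trpv6, a calcium channel, was at 0.18 and Atp2b1, a calcium pump, at -0.02 on the log2 fold change scale.

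Estrogen and progesterone targets had 4 of 8 genes above the minimum, with Igf1 at -0.49 and Wnt4 at 0.04 on the log2 fold change scale and 0 called. Ltf, the 1 of them at an unadjusted p under 0.05 in DESeq2, had 49.3 normalized counts in WT 5 and 4.74 or fewer in the other libraries, and edgeR and limma-voom had 0 at that level. Areg, Tnfsf11 and Ihh, widely used readouts of estrogen and progesterone action in mammary gland and uterus, were below the minimum.

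The machinery shared by the receptors gave few calls. Of 17 coregulators tested, 0 were called by DESeq2, edgeR or limma-voom, at a median log2 fold change of -0.07, and 1 of them, Ep300, a histone acetyltransferase, had an unadjusted p under 0.05 (log2 fold change -0.25). Ppargc1a, a coactivator of metabolic genes, was at 0.27. Of 13 chaperones, Fkbp5 alone passed, and Fkbp4, the co-chaperone that opposes Fkbp5, was at 0.30 with every DKO library above every WT library (adjusted p = 0.205, DESeq2). Without DKO 4, Fkbp4 was at 0.15. Among the 13, 3 did not overlap as higher and 2 as lower, where 9.85% and 10.5% of all rows did not. Hormone conversion and uptake genes had 14 of 23 tested and 0 called, with Hsd17b11 at -0.26 on the log2 fold change scale. Dio1, described above, is also in this list, and at -1.97 was its 1 gene at an unadjusted p under 0.05 in DESeq2.

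Among 26 other nuclear receptors tested, 20 had a positive log2 fold change, at a median of 0.15, and 0 were called. At an unadjusted p under 0.05, DESeq2 took 4 of the 26, edgeR 5 and limma-voom 4, where they took 12.2%, 15% and 14% of all rows, so these counts lie near the background. Rxrg, another retinoid X receptor, stood at 52.4, 66.5 and 67.2 normalized counts in WT against 59.8, 133 and 114 in DKO, a log2 fold change of 0.72 (adjusted p = 0.251, DESeq2) that passed without DKO 1 (0.99, adjusted p = 0.0171). Nr4a3, an orphan receptor, was at 0.51 with no overlap between groups (adjusted p = 0.228, DESeq2). Among the 26, 4 did not overlap as higher and 0 as lower, where 9.85% and 10.5% of all rows did not. Rxrb, at a log2 fold change of 0.01 and named after its values were seen, stood with Rxra among the receptors with the smallest differences.

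Granular duct products gave the largest group of calls. Of 17 tested, 15 fell, 0 rose and 2 did not pass, at a median log2 fold change of -0.91, and all 15 had no overlap between groups, beside 1.88% of all rows called lower and 10.5% not overlapping as lower. Klk1b24 had the largest change among the kallikreins, at -1.17 (SE 0.12, adjusted p = 3.00e-19, DESeq2), and near-identical kallikrein genes may share reads. Ren1 was at -1.40 (adjusted p = 0.876) with the spread described above, and Klk1 was at 0.28. The 7 duct markers, a separate list that also holds Egf and Klk1, summed to 203132 to 254495 normalized counts in WT and 218761 to 288399 in DKO, with overlap, and Klk1 made up most of that sum. Of these 7, 5 had a negative log2 fold change, 4 (Egf, Krt19, Krt7 and Muc13) were lower in DKO without overlap, and 1, Egf, was called. This list holds products that earlier results of these libraries had already shown to be lower, so its count is not independent evidence of its direction.

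**Figure D4:**
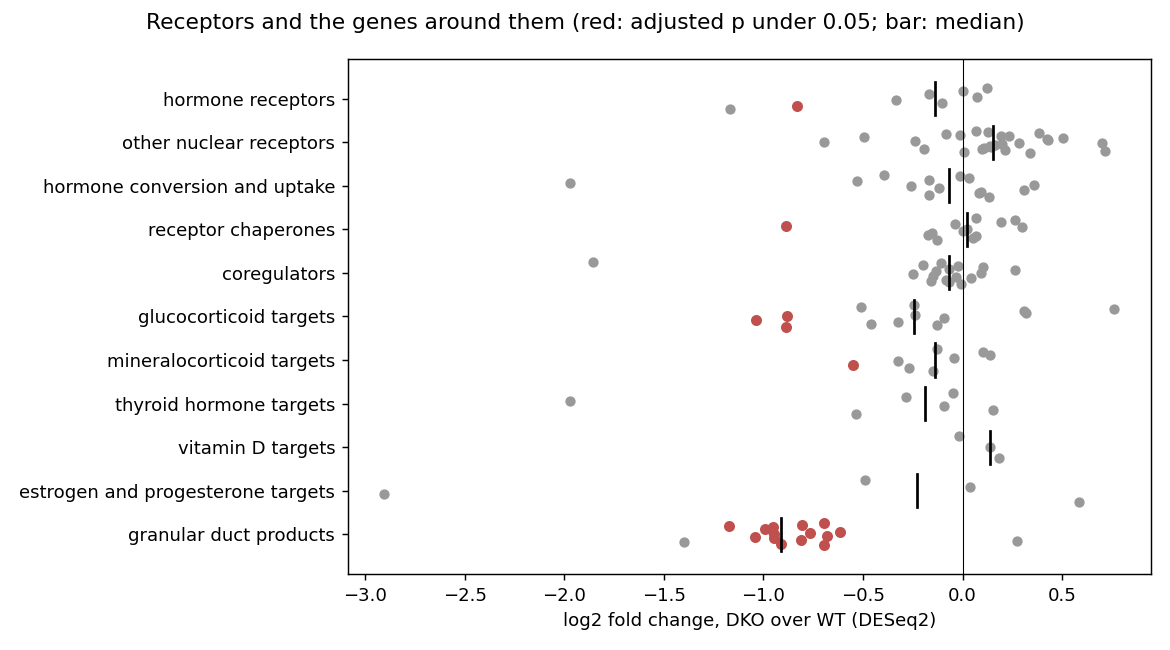
Log2 fold change (DKO over WT, DESeq2) of each tested gene in the receptor set and in the 10 lists around it, with genes at an adjusted p under 0.05 in red and a bar at each list's median. Granular duct products lay around a median of -0.91, glucocorticoid targets around -0.25 with 3 called, and the other nuclear receptors around 0.15 with 0 called.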

How the data were processed

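RNA from female SMG was made into unstranded Nextera XT libraries and sequenced on a HiSeq2500, 3 libraries labelled WT and 3 labelled DKO. From the authors came unnormalized counts, deposited by symbol for 43280 genes before any filter. Their filtered counts and scaled signal were not used. The submitters' processing notes name STAR 2.5.2a, DESeq2, edgeR and limma and the builds GRCm38, mm10 and GRCh38 without roles. The counting tool and annotation are not given in the sources used here. Total counts were 23674258 to 29611975 per library, and size factors 0.867 to 1.12. Every row had a gene name. Replicates differed by a chi-square per degree of freedom of 16.8 to 43.4, so none was a repeat deposit, and nothing in the labels says more about how the samples were separated than that they are separate glands.

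Of these, the 18606 that reached 10 counts over the 6 libraries together were tested in DESeq2 1.42.0 under R 4.3.3, the test the study's methods name, by its Wald test (two-sided) without shrinkage of fold changes, on median-of-ratios scaling, with default Cook's and independent filters (alpha 0.1) and Benjamini-Hochberg adjustment over all rows. A call is an adjusted p under 0.05. An adjusted p was not given for 2556 rows. edgeR 4.0.16 (quasi-likelihood) and limma 3.58.1 (voom) were alternatives, with other scalings, filters, a replicate block and each library left out, and leaving out WT 5 with DKO 1 was added after seeing the data. The scripts were tested on simulated counts with known changes. Levels per kb used merged exons of GENCODE M21 (GRCm38), and likeness used Pearson r of log2(normalized count + 1).

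The receptors, lists and cell type markers were chosen with earlier results of these data known. Named genes are the 8 receptors, called genes of the lists, the 2 largest differences per list at a mean of at least 50 normalized counts (granular duct products by count and the largest change), the 3 genes most like each receptor, and the targeted genes. Other genes were named after their values were seen. A few items that this rule would name are not reported here.

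Cell type markers were also read for acinar (3 of 6 called higher), duct (1 of 7 called lower, Egf), endothelial (0 of 4 called in DESeq2, edgeR or limma-voom, 2 at an unadjusted p under 0.05 in DESeq2), adipocyte (1 of 5 tested) and skeletal muscle genes (3 of 4 tested, 0 called by any tool and 0 at an unadjusted p under 0.05 in DESeq2) and for Muc19 and Smgc (0 of 2 called). Over all rows tested, DESeq2 called 1.02% higher and 1.88% lower, and 12.2% had an unadjusted p under 0.05 in either direction.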

Additional observations from a re-analysis of the deposited data

How the results depend on the processing

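The counts of calls depended on the tool and the scaling. DESeq2 called 539 rows, 1 receptor and 19 pathway genes. edgeR called 10 rows, 0 receptors and 2 pathway genes, limma-voom 7, 0 and 3, and DESeq2 with total counts as size factors 1472, 4 and 30. Total counts moved the median of all rows to -0.23 and that of the receptors to -0.37, so the receptors relative to all rows stayed close to their reported values. Without independent filtering 0 receptors were called. Leaving out single libraries gave 149 to 817 rows, 15 to 20 pathway genes and 0 to 2 receptors, the latter without DKO 1, and leaving out WT 5 and DKO 1 together, chosen after seeing the data, gave 183 rows, 0 receptors and 12 pathway genes. Fits with libraries left out also had fewer libraries, and the cause of these differences was not tested. Same-numbered libraries of the 2 groups did not deviate together (r = -0.13, -0.02 and -0.26 over 11489 genes), so the numbers were not taken as pairs, and the replicate block gave 343 rows and 0 receptors (Pgr adjusted p = 0.229, DESeq2) and ended the calls of Dusp1 (0.145) and Scnn1g (0.0591).

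Signs turned for differences near 0. With total counts, Thra was at -0.15, Rxra -0.23, Vdr -0.11, Hr -0.071, Trpv6 -0.048 and Wnt4 -0.19. With single libraries left out, Thra ranged from -0.025 to 0.16, Rxra from -0.031 to 0.036, Atp2b1 from -0.054 to 0.055 and Wnt4 from -0.072 to 0.12. Rxra was at -0.0016 with a minimum of 10 counts in 3 libraries and -0.049 without WT 5 and DKO 1. Divided by the longest transcript, WT levels per kb were 211 for Nr3c1, 207 for Thra, 171 for Thrb, 157 for Nr3c2, 125 for Rxra, 39.0 for Vdr, 16.9 for Pgr and 10.3 for Esr1. The low counts of Esr1, 14 to 84 per library, limit its precision.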
